A study of Mus musculus with 8 samples.

Results

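The step from day 2 to day 4 of the *Setdb1* time course was examined with the Upstate-type antibody against H3K9me3, that is, 2 of the 8 ChIP-seq libraries of the series. The libraries at *T* = 2d and *T* = 4d were chosen by their time point and antibody, not by their tags. Cells were mouse JM8 ES cells, a C57BL/6N line grown without feeders, with 1 conditional (*tm1c*) and 1 targeted null (*tm2*) allele of *Setdb1* and a CreERT2 recombinase knocked in at *Rosa26*. They received 0.8 μM 4′OHT for 48 h, so *T* = 2d is the end of the treatment and *T* = 4d lies 2 days after it. 4′OHT lets the recombinase enter the nucleus and turn *tm1c* into the null *tm1d* allele. The sample labels write *tm1a/tm2* and *tm1c/tm2* where the study's methods write *tm1c/tm2* and *tm1d/tm2*, and the latter names are used here. The other libraries are *T* = 0 and *T* = 6d with the same antibody, and *T* = 0 and *T* = 6d with lots 58206 and 638466 of an Abcam antibody. All 8 come from cells that carry the *tm2* allele and the recombinase. Control cells (*Setdb1 tm1c/+*) were left aside here, so an effect of 4′OHT or of days in culture cannot be told apart from that of the deletion. Each antibody lot has 1 library at a time point, and intervals are for counting error only. Every test below compares 2 libraries, except those that set the Upstate-type antibody against both Abcam lots together.

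Setdb1 is a histone methyltransferase that places 3 methyl groups on lysine 9 of histone H3. This mark, H3K9me3, lies on silent chromatin such as pericentromeric satellites and on silenced retroviral elements, and in ES cells Setdb1 is recruited to many of the latter by KRAB zinc-finger proteins and their partner Trim28. Other enzymes, among them Suv39h1 and Suv39h2, place the same mark, mostly at pericentromeric repeats. ChIP-seq counts the DNA fragments that the antibody brings down, so a tag count measures the mark relative to all other tags of that library and not as an absolute amount.

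Each Upstate library held 6887819 tags, of which 6708826 at *T* = 2d and 6712144 at *T* = 4d lay on chromosomes 1 to 19. No start position occurred more than once in a library. These autosomes were divided into 494475 windows of 5 kb, and 425764 of them held at least 10 tags in the *T* = 2d and *T* = 4d libraries together and were tested. The *T* = 2d library stood apart from the other Upstate libraries. It had 45973 windows at 3 or more times its own median, with 42.5% of its tags, against 37230 to 41041 windows with 34.5% to 35.3% of the tags in the other 3. Its median window held 9 tags, against 10 in each of the others. The share of start positions held in common was 1.10% for *T* = 2d and *T* = 4d and between 0.814% and 1.03% for the other pairs of Upstate libraries. The deletion of *Setdb1* was not looked for in the tags, since gene positions in mm9, the build of the files, were not used here.

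From *T* = 2d to *T* = 4d the tags moved out of windows that were rich in H3K9me3 and into windows that were poor in it. A window was called lower or higher at a Fisher's exact *P* below 0.01 with a change over 1.5-fold. By this rule 5217 windows were lower at *T* = 4d (1.23% of those tested) and 3975 were higher (0.934%). The 337254 windows that lay below 1.5 times the median at *T* = 0 with both the Upstate-type and the Abcam antibody held 2626970 tags at *T* = 2d and 3064623 at *T* = 4d. That is a rise of 1.17-fold (95% interval 1.165 to 1.169), or 0.22 on the log2 scale. The same windows held 2682114 tags at *T* = 0 and 3159678 at *T* = 6d, so the *T* = 4d value lies near the later library and the *T* = 2d value near the earlier one. When these windows were taken as unchanged, 14244 windows were lower and 2314 higher, and the lower share of the calls went from 56.8% to 86.0%. A fold change below on all tags is thus 1.17 times higher than one relative to the poor windows, and values on the second scale are called scaled.

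The change followed the *T* = 0 level of a window. Among windows grouped by their Upstate tags at *T* = 0, the summed tags rose 1.19-fold in windows below 0.5 times the median and 1.12-fold between 1 and 1.5 times. The ratio was 0.986 between 1.5 and 2 times, and 0.879 between 2 and 3 times. Above that it levelled off, at 0.862 between 3 and 5 times, 0.876 between 5 and 10 times and 0.848 above 20 times. The Abcam antibody, whose libraries do not enter the ratio, ordered the windows more steeply. By their pooled Abcam tags at *T* = 0 the ratio went from 1.12 below 0.5 times the median through 0.777 between 2 and 3 times to 0.695 between 3 and 5 times (869 windows) and 0.719 between 5 and 10 times (89 windows). It was 0.924 in the 34 windows above 10 times the Abcam median, where 23.5% of windows were lower. Some of these, such as chr9:3025001-3030000 with 435 to 566 tags in each of the 8 libraries, held similar counts whatever the depth.

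**Figure D1:**
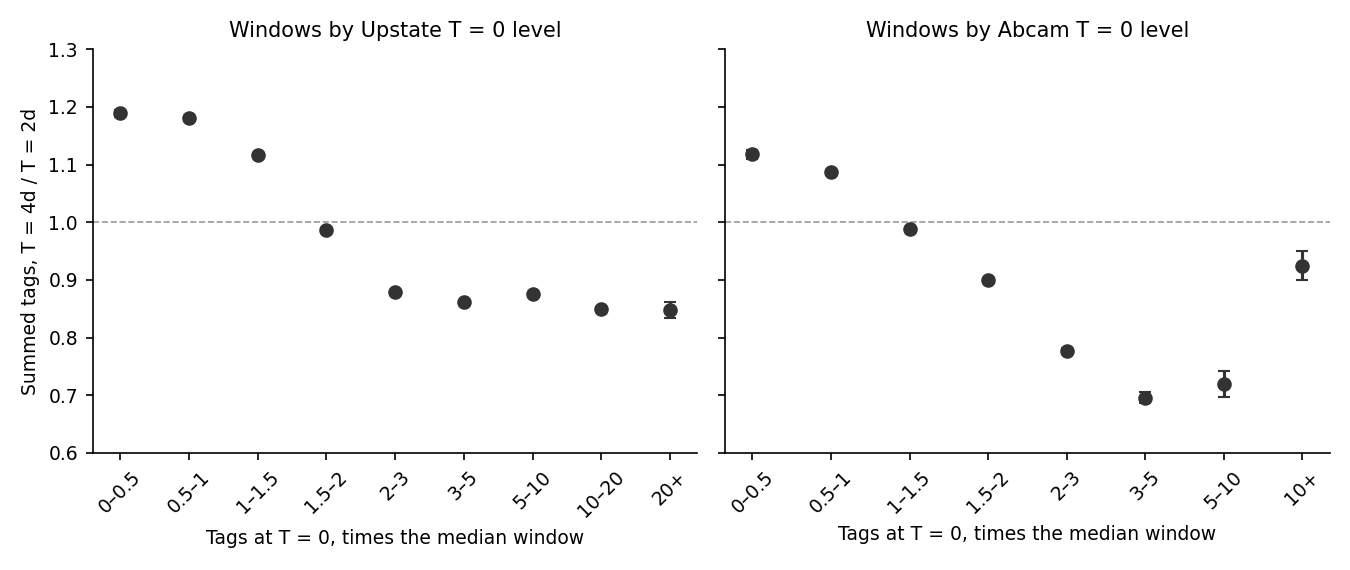
Summed Upstate tags at T = 4d divided by those at T = 2d, for windows grouped by their tags at T = 0 with the Upstate-type antibody (left) or with both Abcam lots pooled (right), in multiples of the median window. Points are ratios, bars are exact 95% counting intervals (often smaller than the point) and the dashed line marks no change. With the Upstate grouping the ratio falls from 1.19 to a plateau near 0.85, while with the Abcam grouping it falls to 0.695 and returns to 0.924 in the highest group.

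The Abcam level separated windows also at a matched Upstate level. Among windows between 5 and 10 times the Upstate median at *T* = 0, the ratio was 0.893 where the Abcam level was below 1.5 times the median, 0.820 where it was between 1.5 and 3 times and 0.668 where it was 3 times or more. The share of these windows called lower was 5.04%, 16.0% and 41.3%. Windows between 3 and 5 times the Upstate median gave ratios of 0.894, 0.765 and 0.741 in the same order, and those above 10 times gave 0.861, 0.840 and 0.767. At each Upstate level the ratio thus fell as the Abcam level rose.

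The Abcam tags before treatment, pooled over both lots, marked 992 windows at 3 or more times their median (42 tags), called enriched windows. The set is mixed, since some windows passed mainly through lot 58206. An example is chr1:180265001-180270000, with 109 tags in lot 58206 (median window 16) and 35 in lot 638466 (median window 25). Values below are for the mixed set. In the 992 windows the Upstate tags went from 70749 at *T* = 2d to 51948 at *T* = 4d, a ratio of 0.734 (95% interval 0.726 to 0.743), and 0.629 when scaled. The median window fell from 46 to 28 tags. Of the 992 windows, 301 were lower (30.3%, exact binomial interval 27.5% to 33.3%) and 4 were higher (0.403%), against 1.23% lower and 0.934% higher over all windows tested. With the scaled counts 42.2% were lower and 0.101% higher. The fall was spread over most of these windows. *T* = 4d held fewer tags than *T* = 2d in 847 windows (85.4%) and more in 130, where 41.2% of all windows tested held fewer. The median ratio of a window was 0.680, with quartiles of 0.451 and 0.870 and 10th and 90th percentiles of 0.296 and 1.07. With Benjamini-Hochberg adjustment over all windows tested, at an adjusted *P* below 0.05, 147 of the 992 were lower and 2 higher. When the windows were chosen instead on the pooled Abcam tags at *T* = 6d, 3.54% of 2319 windows were lower and the ratio was 0.858.

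**Figure D2:**
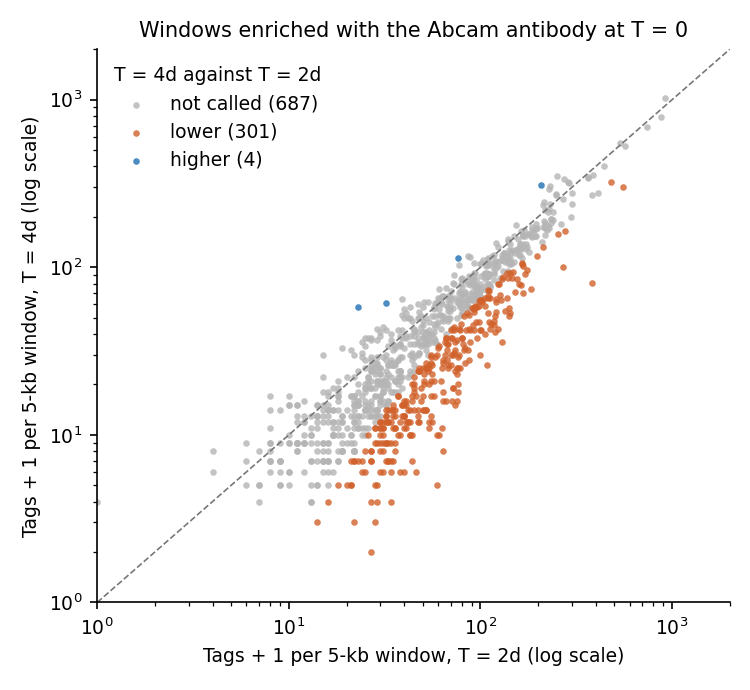
Tags plus 1 in each of the 992 enriched windows at T = 2d (horizontal) and T = 4d (vertical), both on log scales, with the dashed line at equal counts. The 301 windows called lower lie below the line, at low and at high counts, and the 4 called higher lie above it.

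Windows rich with the Upstate-type antibody alone fell less in this step than those enriched with both antibodies, and they fell from a raised level. Of the 41041 windows at 3 or more times the Upstate median at *T* = 0, which include 803 enriched with both, 7.45% were lower, at a ratio of 0.866. They had risen 1.11-fold from *T* = 0 to *T* = 2d. In the 30095 of them with an Abcam level below 1.5 times the median, 4.52% were lower and the ratio was 0.887 (0.885 to 0.889). Their summed tags were 1778424, 2047165, 1815640 and 1743431 over the 4 libraries, so they had risen 1.15-fold by *T* = 2d and *T* = 4d still lay above *T* = 0. In the 803 windows enriched with both, 36.2% were lower and the ratio was 0.732 (0.724 to 0.741), after a ratio of 0.883 in the first step. The 85 windows enriched with the Abcam antibody and below 1.5 times the Upstate median had a ratio of 0.778 (0.708 to 0.855), an interval that holds the 0.732. None of them was called lower, which allows a share of up to 4.25% (exact binomial). These windows held few Upstate tags, so a call there was hard to reach.

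By share of all tags, the fall at *T* = 4d was the largest of the 3 steps of the time course in the enriched windows. Their summed tags went from 79302 before treatment to 70749, 51948 and 44228 on days 2, 4 and 6. The ratios of the steps were 0.892, 0.734 and 0.851, and their 95% counting intervals do not meet. Lower windows numbered 225 (22.7%) from *T* = 0 to *T* = 2d, against 0.899% over all windows, 301 from *T* = 2d to *T* = 4d and 80 (8.06%) from *T* = 4d to *T* = 6d, against 0.903%. Higher windows numbered 42, 4 and 11, or 4.23%, 0.403% and 1.11%, where all windows gave 0.91%, 0.934% and 1.04%. Neighbouring steps share a library, so their values are not independent, and the shared *T* = 2d library stood apart. In the 30095 windows rich with the Upstate-type antibody and below 1.5 times the Abcam median, the 3 steps gave 1.15, 0.887 and 0.960. Set against those windows, the first step of the enriched windows would be the largest. Which step was largest thus depends on the windows taken as unchanged. When the *T* = 2d library was left out, *T* = 4d set against *T* = 0 gave a ratio of 0.655 for the enriched windows (0.648 to 0.662), with 458 windows lower (46.2%) and 9 higher. That ratio spans the first and second steps and cannot rank them. The windows poor with both antibodies gave 0.979, 1.17 and 1.03 over the 3 steps and 1.14 from *T* = 0 to *T* = 4d.

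The fall was sharpest at the centre of an enriched site. Around the 726 enriched windows that stand alone, the mean number of tags per kb within 2 kb of the centre went from 12.9 before treatment to 11.7, 8.15 and 6.57 on days 2, 4 and 6. Between 5 and 10 kb away it was 7.56, 8.19, 6.99 and 6.07, and between 20 and 25 kb 6.23, 6.67, 5.87 and 5.28. The ratio of *T* = 4d to *T* = 2d was thus 0.697 at the centre, 0.853 at 5 to 10 kb and 0.880 at 20 to 25 kb. Up to 25 kb away the mean level stayed below that at *T* = 2d, and it did not reach the 1.17-fold rise of the poor windows.

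**Figure D3:**
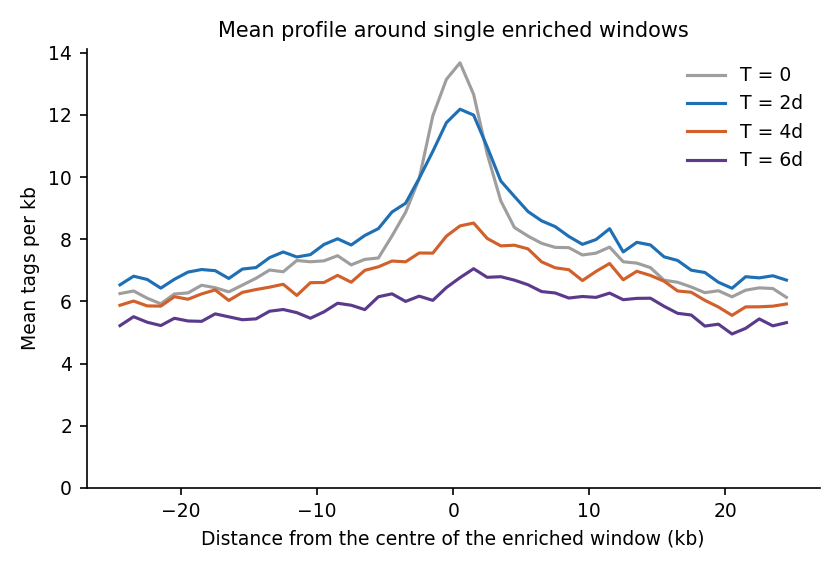
Mean Upstate tags per kb against the distance in kb from the centre of the 726 single enriched windows, with 1 line per time point. The peak of 11.7 tags per kb within 2 kb of the centre at T = 2d falls to 8.15 at T = 4d, and the flanks fall less.

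The libraries at *T* = 0 and *T* = 6d took no part in the calls and gave the windows called at *T* = 4d a second reading. In the 5217 lower windows the median was 35, 34, 11 and 12 tags over the 4 Upstate libraries. Their summed tags had risen from 228735 to 253824 between *T* = 0 and *T* = 2d, a ratio of 1.11 (1.10 to 1.12), with 7.99% of windows higher and 4.03% lower, and the call picks windows that are high at *T* = 2d. In these windows the Upstate ratio of *T* = 6d to *T* = 0 was 0.520, and 48.9% of the windows tested were lower and 0.482% higher at *T* = 6d, against 3.46% and 2.24% of all windows. With the Abcam antibody, 28.4% were lower with lot 58206 and 23.4% with lot 638466, where all windows gave 2.14% and 2.08%. In the 301 lower windows that were enriched, the share lower at *T* = 6d than at *T* = 0 was 91.7% for the Upstate-type antibody (ratio 0.283), 83.7% for lot 58206 (0.448) and 89.4% for lot 638466 (0.369). The enriched windows without a call fell less with the Upstate-type antibody, at a ratio of 0.706 with 36.1% lower. The lots differed there, at 1.10 for lot 58206 and 0.685 for lot 638466. The enriched windows were chosen on the Abcam libraries at *T* = 0, so their Abcam ratios can be lowered by that choice, and the values of the 301 and of the 687 windows are to be read beside each other.

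The higher windows were mostly poor ones, and the Abcam lots gave them little change. These lots set rich and poor windows less far apart, so a small Abcam change does not show that the mark kept its level. In the 3975 higher windows the median was 10, 4, 19 and 14 tags over the 4 Upstate libraries. The call picks windows that are low at *T* = 2d and high at *T* = 4d, so the low *T* = 2d value beside *T* = 0 is fixed in part by the choice. Of them, 3122 were below 1.5 times the median at *T* = 0 with both antibodies. The Upstate ratio of *T* = 6d to *T* = 0 was 1.75, with 14.9% of windows higher and 0.154% lower, against 2.24% and 3.46% of all windows. With lot 58206 the ratio was 1.09 and 2.35% were higher, against 1.89% of all windows, and with lot 638466 it was 1.10 and 1.74%, against 1.17%. There were also 613 lower windows at the poor level, with medians of 10, 16, 3 and 7 tags. At such low counts the choice makes *T* = 2d and *T* = 4d the extremes, and only *T* = 0 and *T* = 6d are independent of it.

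Most called windows stood alone, and a few formed blocks. The 5217 lower windows formed 4520 runs of neighbours, 507 of them of 2 or more windows, which held 23.1% of the windows. The 3975 higher windows formed 3628 runs, 200 of them of 2 or more, with 13.8% of the windows. The longest runs had 10 lower windows (50 kb) and 12 higher windows (60 kb). Runs of 8 or more numbered 4 in each direction, and these 8 are described because of their length, which was seen in the data. The windows beside several of them moved the same way. To the left of the run on chromosome 9 described below, windows 47.5 and 37.5 kb from its centre went from 10 to 96 and from 4 to 107 tags, and beside the run of chromosome 11 that starts at 12250001 a window 30 kb from the centre went from 68 to 15.

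The 4 long lower runs were rich with the Upstate-type antibody, at 6.4 to 11.2 times its median at *T* = 0. The run at chr16:84775001-84825000 held 648 tags before treatment and 653, 226 and 112 on days 2, 4 and 6. That at chr11:12250001-12295000 held 614, 439, 108 and 87. The run at chr11:49610001-49655000 held 752, 737, 292 and 239 tags. The run at chr1:89575001-89615000 held 904, 862, 415 and 199. By *T* = 4d each of the 4 runs had lost most of its *T* = 0 Upstate tags, and each total was lower again at *T* = 6d. In 3 of the 4 runs *T* = 2d differed from *T* = 0 by fewer than 45 tags, and the drop followed it. From *T* = 0 to *T* = 6d, which the choice did not use, the Upstate ratios of the 4 runs in this order were 0.173, 0.142, 0.318 and 0.220, each with an adjusted *P* of 3.74e-62 or less by Fisher's exact test over the 8 runs. The Abcam ratios were 0.577, 0.874, 0.770 and 0.713 with lot 58206 and 1.003, 0.718, 0.872 and 0.696 with lot 638466. Both lots together held 566, 552, 507 and 530 tags at *T* = 0 in these runs.

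The 4 long higher runs were at the median level before the treatment. The run at chr8:64155001-64215000 held 140, 178, 843 and 790 tags over the 4 Upstate libraries, and each of its 12 windows went from 11 to 21 tags at *T* = 2d to between 39 and 130 at *T* = 4d. The run at chr3:35435001-35480000 held 82, 91, 335 and 335 tags. The run at chr9:26715001-26755000 held 85, 79, 421 and 432. In these 3 runs the rise lay between *T* = 2d and *T* = 4d, at 3.68-fold to 5.33-fold, and *T* = 6d kept it. The run at chr14:28335001-28375000 held 130, 174, 510 and 394 tags. From *T* = 0 to *T* = 6d the Upstate ratios were 5.64, 4.09, 5.08 and 3.03, with adjusted *P* of 6.75e-32 or less by Fisher's exact test. The Abcam ratios of the same runs were 0.899, 0.836, 0.676 and 0.649 with lot 58206 and 1.12, 0.906, 1.11 and 0.958 with lot 638466. With scaled counts every window of the 4 lower runs was still called, and 12 of 12, 7 of 9, 8 of 8 and 6 of 8 windows of the higher runs were.

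**Figure D4:**
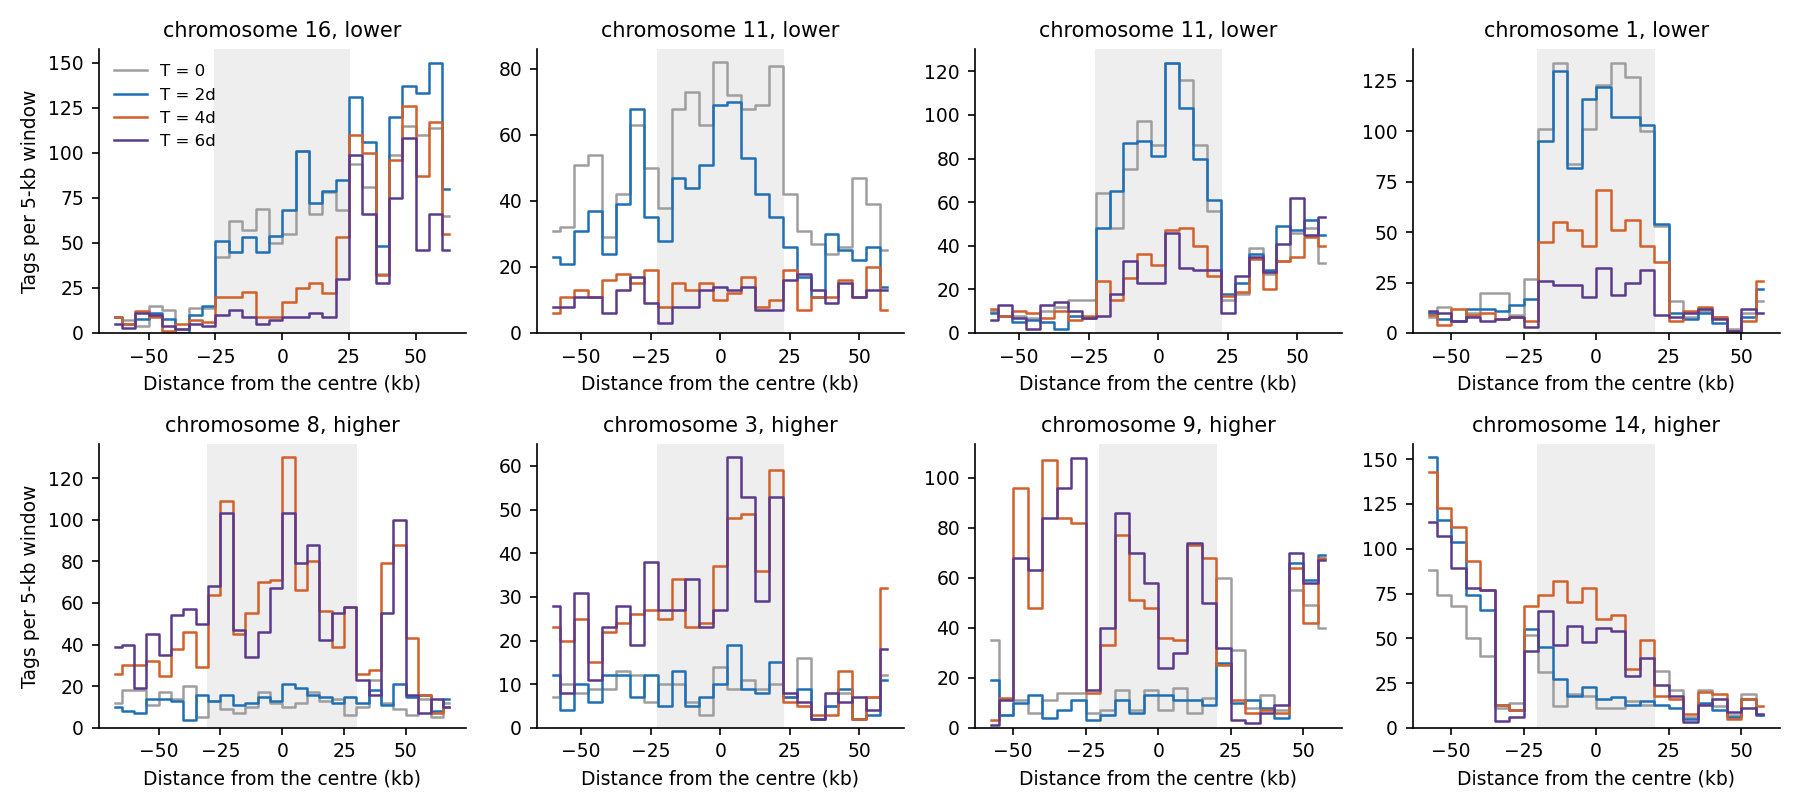
Upstate tags per 5-kb window against the distance in kb from the centre of the 4 long lower runs (top) and the 4 long higher runs (bottom), with 1 line per time point and the run shaded. In the lower runs the T = 0 and T = 2d lines lie above those of T = 4d and T = 6d, and in the higher runs below them, as in the run of chromosome 8 with 140, 178, 843 and 790 tags.

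The study drew its H3K9me3 tracks at 3 genes and a control region, and the boxes in those drawings were counted with limits read to the nearest kb. *Olfr901* encodes an olfactory receptor, a gene family that is silent outside the olfactory epithelium. Its box (chr9:38216001-38236000) held 181 Upstate tags before treatment and 124, 44 and 17 on days 2, 4 and 6. The ratio of *T* = 4d to *T* = 2d was 0.355 (0.246 to 0.504, Fisher's exact *P* = 5.16e-10, adjusted over the 4 boxes 2.06e-09), and 0.304 when scaled. Of its 20 bins of 1 kb, 15 were lower at *T* = 4d, and the median bin went from 6.0 to 1.5 tags. The fall was not even along the box. In the first 15 kb *T* = 4d had at most 5 tags in a bin, while the bins at 17 and 18 kb held 7 and 6 tags at *T* = 4d against 6 and 6 at *T* = 2d. Outside the box, within 10 kb on each side, the tags rose from 48 to 90 (1.88-fold, 1.31 to 2.72, Fisher's exact *P* = 4.41e-04). The *P* given for the flanks of each box is not adjusted. By *T* = 6d these flanks held fewer tags than at *T* = 2d, so the rise was seen in the *T* = 4d library alone. The bins at 21 and 22 kb from the start of the box were the highest of the flanks at *T* = 4d, with 4 and 8 tags at *T* = 2d and 15 and 18 at *T* = 4d, and with 6 and 7 at *T* = 6d.

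*Cdh3*, which encodes the cell adhesion protein P-cadherin, had a broader and thinner signal. Its box (chr8:108962001-109031000) held 247, 133, 78 and 76 tags, so both the first and the second step lowered it, and *T* = 6d was at the level of *T* = 4d. The ratio of *T* = 4d to *T* = 2d was 0.586 (0.438 to 0.781, Fisher's exact *P* = 1.86e-04, adjusted 3.73e-04), and 0.503 when scaled. Of 69 bins, 27 were lower, 13 higher and 29 equal, and 26 held no tag at *T* = 2d and 31 none at *T* = 4d. The bins centred 42.5 to 54.5 kb from the start of the box held no tag in any library. They are counted among the equal and the empty bins, though no change could be seen there. Within 20 kb on each side the tags went from 316 to 241, a ratio of 0.763 (0.642 to 0.905, Fisher's exact *P* = 0.00169). Tags were thus lost outside the box too in this step. The flanks, however, came down from a raised level, because their summed tags had increased during the first step. The box had already declined in that first step, so the flanks did not share its earlier loss.

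*H19* is an imprinted gene, expressed from the maternal allele, whose RNA is not translated. Its box (chr7:149764001-149770000) held 53, 27, 18 and 13 tags. The ratio of *T* = 4d to *T* = 2d was 0.667 with a wide interval (0.346 to 1.26, Fisher's exact *P* = 0.233), so a change in this step was not detectable at this depth. Its highest bin at *T* = 2d held 12 tags, and 2 at *T* = 4d. Within 10 kb on each side of the *H19* box the tags went from 22 to 31 (1.41-fold, 0.790 to 2.55, Fisher's exact *P* = 0.272). The control region (chr4:3015001-3020000) held 90, 88, 68 and 62 tags, a ratio of 0.773 (0.555 to 1.07, Fisher's exact *P* = 0.128). It is itself an enriched window, with 77 and 91 tags in the Abcam lots at *T* = 0, and lies near the start of chromosome 4. The interval of its ratio overlaps those of the *Cdh3* and *H19* boxes. The highest bin of the control region had 48 tags at *T* = 2d and 42 at *T* = 4d. Within 10 kb on each side of it the tags went from 62 to 54 (0.871, 0.593 to 1.28, Fisher's exact *P* = 0.516). When scaled, the ratio of *H19* was 0.571 (Fisher's exact *P* = 0.0725) and that of the control 0.662 (Fisher's exact *P* = 0.0125). With both scalings the *Olfr901* ratio was the lowest of the 4 boxes.

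**Figure D5:**
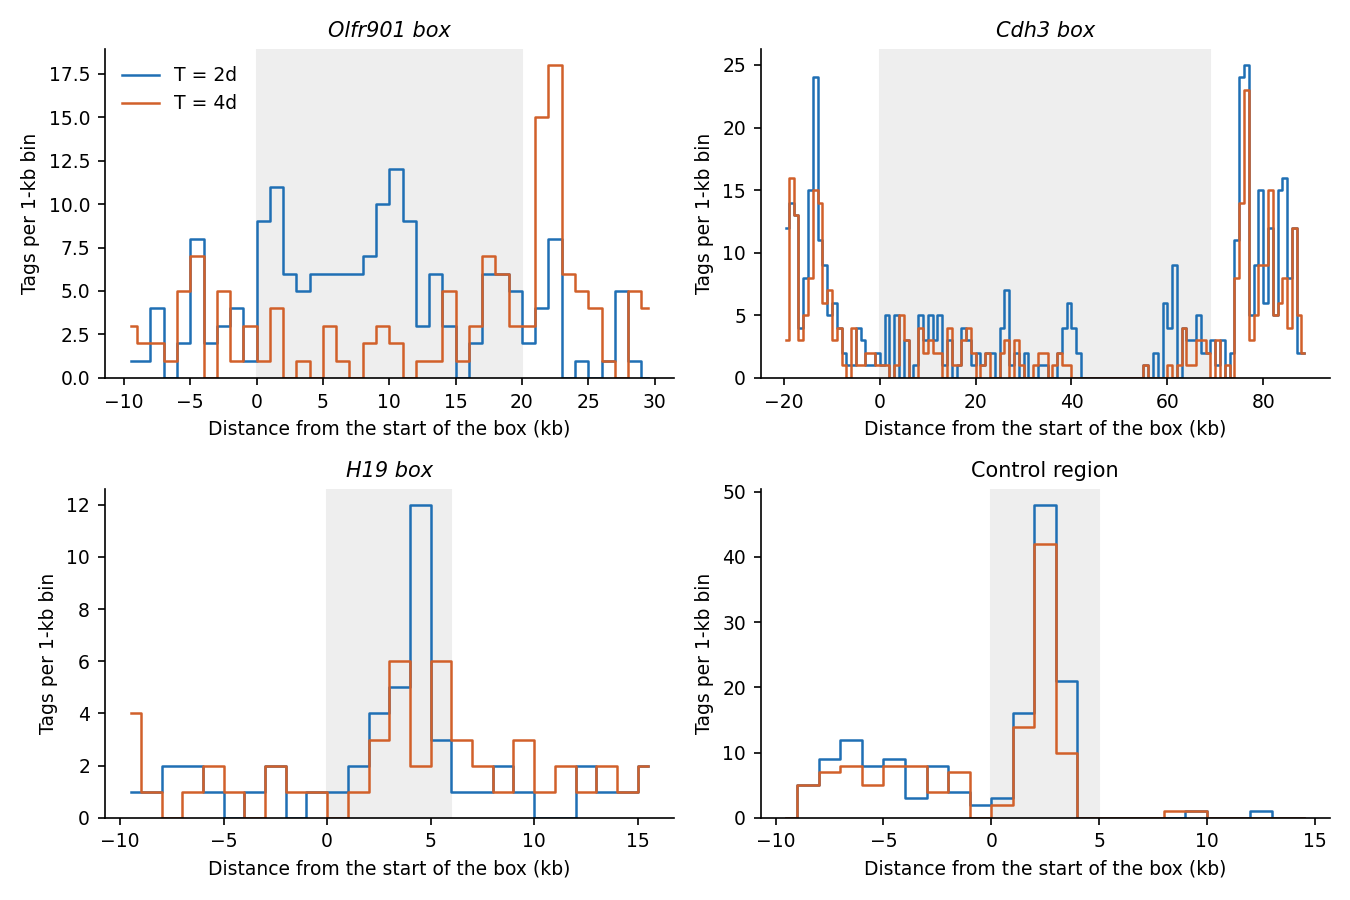
Upstate tags per 1-kb bin at T = 2d and T = 4d against the distance in kb from the start of the 3 gene boxes and of the control region, with each box shaded. The T = 4d line lies below the T = 2d line through most of the first 15 kb of the Olfr901 box and above it at 21 and 22 kb, where it holds 15 and 18 tags, and the peak of the control region stays, with 48 and 42 tags.

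Neighbouring enriched windows were joined into 823 regions, of which 726 were single windows and the longest had 21 windows. Of the 681 regions with at least 30 tags at *T* = 2d and *T* = 4d together, 245 were lower (36.0%) and 2 were higher (0.294%). The median ratio was 0.671 for 585 single windows and 0.662 for 96 longer regions. The regions with the 10 largest falls were all single windows that went from between 27 and 63 tags at *T* = 2d to between 3 and 9 at *T* = 4d. They were chosen by this ratio, so it is extreme by choice, and its interval does not allow for that. In chr6:129035001-129040000 the Upstate tags were 60, 58, 4 and 3 over the time course, a ratio of 0.069 from *T* = 2d to *T* = 4d (0.0182 to 0.186). In chr1:7485001-7490000 they were 61, 63, 7 and 21, and in chr1:7050001-7055000 69, 60, 9 and 6. These 3 windows had kept their *T* = 0 level at *T* = 2d and then lost most of it. In others the fall had begun by *T* = 2d. The window chr15:37010001-37015000 held 74, 33, 3 and 6 tags, chr11:3180001-3185000 held 64, 28, 4 and 8, and chr3:153055001-153060000 held 67, 33, 5 and 3. These had less than 0.5 times their *T* = 0 tags by *T* = 2d. The remaining 4 lie at chr13:62405001-62410000 (42, 28, 3 and 5 tags), chr18:8160001-8165000 (50, 39, 5 and 7), chr16:93665001-93670000 (60, 43, 6 and 5) and chr12:55455001-55460000 (53, 27, 4 and 6). In all 10 windows each Abcam lot also held fewer tags at *T* = 6d than at *T* = 0, as in chr6:129035001-129040000 with 45 and 19 tags for lot 58206 and 84 and 23 for lot 638466. Enriched windows were chosen on the Abcam tags at *T* = 0, so such a fall is in part fixed by the choice. Of the 687 enriched windows without a call, 30.9% were lower and 26.9% higher with lot 58206. With lot 638466, 44.5% were lower and 0% higher.

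The 2 regions that passed the call upward were chr5:15185001-15190000, with 36, 22, 57 and 88 Upstate tags (2.59-fold, 1.56 to 4.45), and chr4:146890001-146895000, with 78, 75, 113 and 100 (1.51-fold, 1.12 to 2.05). The second did not pass with scaled counts, at 1.29-fold, nor when scaled to windows poor with the Abcam antibody alone, at 1.46-fold (Fisher's exact *P* = 0.0106). The Abcam lots did not rise in the first of them, with 62 and 34 tags for lot 58206 and 67 and 69 for lot 638466 at *T* = 0 and *T* = 6d. Both regions were named because of their ratio of *T* = 4d to *T* = 2d, and its intervals do not allow for that choice.

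The 5 longest enriched regions fell into 2 kinds. The longest, chr1:90105001-90210000 (105 kb), held 1899, 1783, 2000 and 2017 Upstate tags, and chr11:3025001-3105000 (80 kb) held 4451, 3788, 4096 and 4647. Their ratios of *T* = 4d to *T* = 2d were 1.12 (1.05 to 1.196) and 1.08 (1.03 to 1.13), and 0.962 and 0.927 when scaled, so their direction depends on the scaling. Both Abcam lots held about as many tags in them at *T* = 6d as at *T* = 0, with 2096 and 2297 for lot 58206 and 3291 and 3043 for lot 638466 in the first. Windows within the chromosome 11 region did not move alike. The window chr11:3090001-3095000 held 812, 554, 299 and 228 Upstate tags and was called lower. In chr11:3030001-3035000 they were 207, 205, 310 and 485, called higher. The other 3 long regions lost tags with every antibody. The region chr10:82885001-82920000 held 720, 566, 241 and 195 Upstate tags (0.426, 0.365 to 0.496), and chr4:146835001-146865000 held 612, 579, 255 and 215 (0.440, 0.379 to 0.511). The region chr16:22380001-22415000 held 1377, 901, 634 and 365 (0.704, 0.635 to 0.780), and its fall was thus spread over all 3 steps. In lot 58206 these 3 regions went from 583 to 117, from 520 to 135 and from 831 to 160 tags between *T* = 0 and *T* = 6d. The choice of enriched windows on the Abcam tags at *T* = 0 can lower such Abcam values. The region chr4:146835001-146865000, which fell, and the window chr4:146890001-146895000, which rose, lie 25 kb apart.

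Enriched windows near the start of a chromosome were not alike. Mouse chromosomes are telocentric, so the first mapped bases of each lie next to the pericentromeric satellites. In the first 1 Mb with tags of the 19 chromosomes there were 48 enriched windows, of which 9 were lower, and their tags went from 7787 to 7510, a ratio of 0.964 (0.934 to 0.996). Most of these tags lay on chromosomes 9 and 11, whose 28 windows went from 6525 to 6595, a ratio of 1.01 (0.977 to 1.05), with 2 lower. The enriched windows at the start of chromosome 9 held similar counts in all 8 libraries whatever the depth. An example is chr9:3000001-3005000, with 362 to 439 tags. Their flat counts thus cannot show whether the mark was kept there. On the other 17 chromosomes the 20 windows went from 1262 to 915, a ratio of 0.725 (0.665 to 0.790), with 7 lower, near the 0.700 (0.691 to 0.708) of the 928 enriched windows away from both ends. The chromosomes were split in this way after their values were seen. In the last 1 Mb there were 16, with a ratio of 0.855 (0.806 to 0.906). By chromosome the ratio of the enriched windows ranged from 0.567 on chromosome 3 to 0.899 on chromosome 11, with a median of 0.696, and each of the 19 was below 1. The share of them that was lower ranged from 16.8% on chromosome 11 to 56.5% on chromosome 13. Windows poor with both antibodies rose on each chromosome, by 1.14-fold to 1.196-fold.

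The share of windows beside stretches where no tag was placed was higher among the lower windows than among all windows. Tags had to map uniquely, so repeated sequence leaves stretches without a tag in any of the 8 libraries. There were 16496 such gaps of 1.5 to 4 kb on the autosomes and 6241 of 4 to 9 kb, the latter the size class of full-length endogenous retroviruses. Of all windows tested, 5.72% had a gap of 1.5 to 4 kb within 5 kb, against 10.96% of the 301 lower enriched windows, 3.35% of the 687 enriched windows without a call and 4.93% of the 3975 higher windows. For gaps of 4 to 9 kb the shares were 3.31%, 6.31%, 2.77% and 2.84%. Of the 56 enriched windows near a gap of 1.5 to 4 kb, 33 were lower (58.9%), at a ratio of 0.504 (0.474 to 0.535), against 28.6% and 0.745 (0.736 to 0.754) in the others. Of the 38 near a gap of 4 to 9 kb, 19 were lower, at 0.660, against 29.6% and 0.737 in the others. These shares were not tested, what sequence lies in the gaps was not examined, and a window that holds part of a gap has fewer places for tags at every time point.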

How the data were processed

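H3K9me3 ChIP-seq tags of 8 libraries were grouped by the antibody and time point in the sample labels. The deposited files list 1 interval of 300 bp per tag, with no score. Per the labels and the study's methods, the authors mapped tags uniquely to mm9, the build drawn in the study, brought the libraries of each antibody to equal numbers and extended them. The aligner is not given in the sources used here. Each file holds 6887819 (Upstate-type antibody), 8503927 (lot 58206) or 12194174 (lot 638466) tags. Between 2.31% and 2.60% of a library lay outside chromosomes 1 to 19 and was left out. Columns of other samples set aside numbered 0.

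Tags were counted by interval midpoint in 5-kb windows with scipy 1.17.1, pandas 2.3.3 and numpy 2.4.6 under Python 3.11.15. Windows with at least 10 tags in both libraries together were compared by Fisher's exact test (two-sided), with the other deposited tags of each library as the remainder. Ratios have exact conditional binomial intervals and shares Clopper-Pearson intervals, at 95%. Regions named were, by rule, the drawn loci with their control, the 10 lowest and 5 highest ratios past the call (only 2 passed upward) among regions with at least 30 tags, and the 5 longest. Windows, lists and regions were chosen with earlier results of these data known. The calls were tried on simulated counts of the enriched windows, drawn with counting error only. Of 200 windows lowered 3-fold, 135 (67.5%) were called lower, and 7 unchanged windows were called. Between *T* = 2d and *T* = 4d the real variance was 1.24 times counting error in windows poor with both antibodies. It was 1.78 times in those poor with the Abcam antibody. The simulation thus had less spread than the data, and intervals for counting error are too narrow to that extent. Alternatives were other windows, limits, choosing libraries, scalings and tag placement. Sequences and genes by position were not used here, because the reference at hand is a later build. Figures were drawn with matplotlib 3.10.9.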

Additional observations from a re-analysis of the deposited data

Results flagged for a closer look

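The change in tags from *T* = 0 to *T* = 6d differed between the Upstate-type antibody and the Abcam lots in the windows called at *T* = 4d. Fisher's exact test was applied to the tags of both antibodies at both time points. The ratio of the Upstate change to the Abcam change was 0.817 in the 5217 lower windows, where the Upstate ratio was 0.520 and that of both lots together 0.636, and 1.60 in the 3975 higher windows, with 1.75 and 1.10. In the long lower runs it was 0.215 on chromosome 16, 0.183 and 0.381 on chromosome 11 (from 12250001 and from 49610001) and 0.314 on chromosome 1. In the long higher runs it was 5.46 on chromosome 8, 4.64 on chromosome 3, 5.45 on chromosome 9 and 3.68 on chromosome 14. The Fisher's exact *P* of these 8 ranged from 2.44e-68 to 6.36e-23. The runs were chosen for their length after the *T* = 2d and *T* = 4d tags were seen, and 1 library stands for each antibody and time point. Windows and runs were called on Upstate tags alone, which can favour a larger change with that antibody. Each Abcam library also held a smaller share of its tags than the Upstate libraries in windows at 3 or more times its own median. The test thus compares tag counts, and whether the mark itself changed differently was not tested.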

How the results depend on the processing

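No paired analysis was possible because each group holds 1 library, and no library could be left out of a side. The enriched windows stayed below a ratio of 1 under each alternative. Their share lower, 30.3% as reported, was 10.0% with 2-kb windows, 10.5% at 2 times the median, 7.45% with windows chosen on Upstate *T* = 0, 3.54% on Abcam *T* = 6d and 14.8% with Benjamini-Hochberg adjustment. Their share higher, 0.403%, was 0.183% with 2-kb windows, 1.63% at 5 times the median, 0.202% with adjustment, and 0.101% over 2-fold. Their ratio, 0.734, was 0.681 in 2-kb and 0.766 in 10-kb windows, 0.768 at 2 and 0.828 at 5 times the median, 0.866 and 0.858 with windows chosen on Upstate *T* = 0 and Abcam *T* = 6d, and 0.706 without windows above 20 times the median. Scaling to windows poor with the Abcam antibody gave 0.713 and a share higher of 0.202%. Over all windows, the shares lower and higher were 0.225% and 0.0871% with adjustment, 2.11% lower with at least 20 tags, and 0.575% and 1.70% higher in 2-kb and 10-kb windows.

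Scaling to windows poor with both antibodies and leaving out the first 1 Mb were chosen after seeing the data. The former gave a ratio of 0.629, a share higher of 0.101%, and 3.35% and 0.543% over all windows, and turned the 2 longest regions to 0.962 and 0.927. The latter gave a ratio of 0.706. The cause of these differences was not tested. Calls at the 4 boxes were the same under each alternative. Of 51 values for named regions under an alternative, 46 kept their call and direction. With 27 and 18 tags, as at *H19*, a 1.5-fold change is below what these libraries can show.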
